A study of Mus musculus with 2 samples.

Results

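Lyve1-low lymphatic endothelial cells (LECs) of the neonatal mesentery were the cells that carried transcripts of Prox1 and of other lymphatic genes but few or none of Lyve1. They were chosen from counts of unique molecular identifiers (UMIs), each of which stands for 1 captured RNA molecule. A barcode was a member when it had at least 2000 UMIs, at most 10% of them mitochondrial, at least 1 UMI of Cdh5 and 1 of Prox1, and at most 2 UMIs of the proliferation genes Mki67 and Top2a. At least 3 of the 6 lymphatic genes Flt4, Mmrn1, Reln, Pdpn, Ccl21a and Nts had to be detected, with at most 3 UMIs of Lyve1 and at most 1 UMI of the lymph node sinus genes Marco, Ackr4 and Stab2. This rule found 215 of the 11273 deposited cells.

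The study compared control mice with Flcn iΔEC mice, which carried Flcn flox/flox and Cdh5-BAC-CreERT2, so that folliculin (Flcn) was deleted from endothelial cells on induction. Pups of C57BL/6 background received doses of 40 μg of 4-hydroxytamoxifen, the first at P2 and the last at P6.5, and CD31+ cells of the mesentery were taken with magnetic beads at P8. The cells of 3 mice per genotype were pooled into 1 library. The Cdh5 promoter drives the recombinase in blood and lymphatic endothelium alike, and the alleles of the controls are not given in the sources used here. With 1 library per genotype there was no replicate and no test, every 95% interval below covers counting error only, and differences between pools of mice cannot be told apart from differences between genotypes.

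Lymphatic vessels begin as blind-ended capillaries, which take up fluid and cells from tissue and are rich in the hyaluronan receptor Lyve1 and the chemokine Ccl21a. They drain into collecting vessels, which lose most Lyve1 and form valves under the control of transcription factors such as Prox1, Foxc2 and Gata2. Prox1 sets and keeps lymphatic identity. Folliculin acts at the lysosome, where it holds the transcription factors Tfe3 and Tfeb in the cytoplasm while nutrients are present.

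The members were 20 control cells and 195 Flcn iΔEC cells. They made up 0.294% of the 6814 control barcodes (exact Clopper-Pearson interval, 0.179 to 0.453) and 4.37% of the 4459 Flcn iΔEC barcodes (3.79 to 5.02). Of the cells that met the lymphatic part of the rule, they were 23.3% of 86 in the control (14.8 to 33.6) and 56.9% of 343 in the Flcn iΔEC library (51.4 to 62.2). The remainder were Lyve1-high LECs, with 4 or more Lyve1 UMIs (26 control and 110 Flcn iΔEC cells), and LECs with 2 or more UMIs of the sinus genes (40 and 38 cells), called sinus-gene LECs. Since bead selection sets which cells enter a library, these shares describe the captured cells.

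The control members held 314479 UMIs in all, with a median of 14344 per cell, and the Flcn iΔEC members 5101830, with a median of 22989. Levels are given in CPM, meaning the UMIs of a gene per 1000000 UMIs of the whole group of cells. A count of 3, taken as the limit that a count of 0 allows, was worth 9.54 CPM in the control and 0.588 CPM in the Flcn iΔEC members, so that low genes were measured far less precisely in the control. Scrublet, a doublet caller, called 0 of the members a doublet, against 139 barcodes of the control and 36 of the Flcn iΔEC library. The libraries shared 6 barcode sequences, and 0 of them belonged to members. Over all cells, 9 control and 63462 Flcn iΔEC UMIs were of Xist, which is expressed by females, whereas 15535 and 17 were of 4 genes on the Y chromosome, so the libraries also differed in the sex of the mice they mostly held, which cannot be told apart from genotype in the differences below. Flcn itself (chromosome 11, 59791408 to 59810016, GRCm38) had 5 counts in the control members, or 15.9 CPM, and 56 in the Flcn iΔEC members, with a ratio of 0.690 between the levels (0.279 to 2.21). Reads from the 3′ end of a transcript can remain when an exon further up is lost, so this value is no check of the deletion.

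Most members had no Lyve1 UMI at all, which was 19 of 20 control cells and 166 of 195 Flcn iΔEC cells. Just inside the limit, with 3 Lyve1 UMIs, lay 0 control and 7 Flcn iΔEC cells, and just outside it, with 4, lay 1 and 7. Of the 6 lymphatic genes, exactly 3 were detected in 3 control and 27 Flcn iΔEC members, and all 6 in 1 and 73. A further 11 control and 31 Flcn iΔEC cells met the rest of the rule with exactly 2 of these genes. Flcn iΔEC cells with exactly 2 carried 44.4 CPM of Mmrn1, 3602 CPM of Mgp and 894 CPM of Vwf, and those with exactly 3 carried 239, 2005 and 603 CPM, so the cells on either side of this limit carried genes of blood vessels. In the control, Vwf stood at 1281 CPM in cells with exactly 2 and at 0 counts in the 3 cells with exactly 3, where Mmrn1 stood at 724 CPM.

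The members carried the markers of endothelium and of lymphatics. Summed over 8 pan-endothelial markers, they held 7867 CPM in the control and 5456 CPM in the Flcn iΔEC library, beside 7088 and 6625 CPM in blood endothelial cells, which had Pecam1 and no Prox1. Foxp2, a forkhead factor of collecting LECs that the rule did not use, stood at 194 CPM in the control members (148 to 249) and 59.6 CPM in the Flcn iΔEC members (53.1 to 66.7), and had 0 counts in the blood endothelial cells of either library. Markers of blood vessels were present at lower levels. Venous markers summed to 929 and 818 CPM in the members, beside 2888 and 2517 CPM in blood endothelial cells. Blood capillary markers summed to 677 and 563 CPM, beside 2480 and 1601 CPM, and arterial markers to 111 and 111 CPM, beside 1180 and 991 CPM. In the members, markers of macrophages and dendritic cells summed to 3.18 and 7.06 CPM, those of fibroblasts, mural and mesothelial cells to 19.1 and 10.8 CPM, and those of leukocytes to 47.7 and 107 CPM. The Flcn iΔEC members held 4 cells with 3 or 4 UMIs of the leukocyte gene Ptprc, and no control member had more than 1.

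The name collecting, given with the 4 markers Prox1, Mmrn1, Foxp2 and Cldn11, held only in part. Cldn11, a tight junction claudin, was the clearest of them outside the rule, at 839 CPM in the control members (741 to 947) against 80.9 CPM in control Lyve1-high LECs, and at 424 CPM in the Flcn iΔEC members (406 to 442) against 105 CPM. Foxp2 was 1.79-fold higher in members than in Lyve1-high LECs of the control (1.22 to 2.62), but 0.970 times their level in the Flcn iΔEC library (0.807 to 1.17). Prox1 and Mmrn1 belong to the rule and are given as description only. Prox1 stood at 1097 CPM in control members and 509 CPM in control Lyve1-high LECs, and at 470 and 330 CPM in the Flcn iΔEC library. Mmrn1 was lower in members, with 913 against 1229 CPM and 727 against 1252 CPM. The cells are therefore called Lyve1-low LECs here, since Mmrn1 did not set them apart and Foxp2 did so in 1 library only.

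Valve genes followed Cldn11 in the control. Foxc2, a factor needed for valve formation, stood at 293 CPM in control members (236 to 359) and 88.8 CPM in control Lyve1-high LECs, and the gap junction protein Gja4 at 785 CPM (691 to 890) and 241 CPM. In the Flcn iΔEC library these levels were 56.1 and 36.9 CPM for Foxc2 and 85.7 and 32.1 CPM for Gja4. Gata2 was 4.61-fold higher in members than in Lyve1-high LECs of the control (2.76 to 7.97) and 1.76-fold higher in the Flcn iΔEC library (1.48 to 2.10). Of 20 genes of collecting vessels and valves, 16 control and 13 Flcn iΔEC genes could be compared, and 7 and 3 of them were at least 2-fold higher in members, with 0 lower in either library. Their median log2 ratios were 0.79 and 0.55, beside 0.085 and 0.060 over all genes compared. Over all genes outside the rule, 4.20% and 1.36% were at least 2-fold higher in members and 2.71% and 0.811% lower. The sinus-gene LECs of the control carried some of these genes as well, with 210.5 CPM of Foxp2 (184 to 240.3), 145 CPM of Foxc2 (123 to 170.2) and 244 CPM of Cldn11 (215 to 276).

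**Figure D1:**
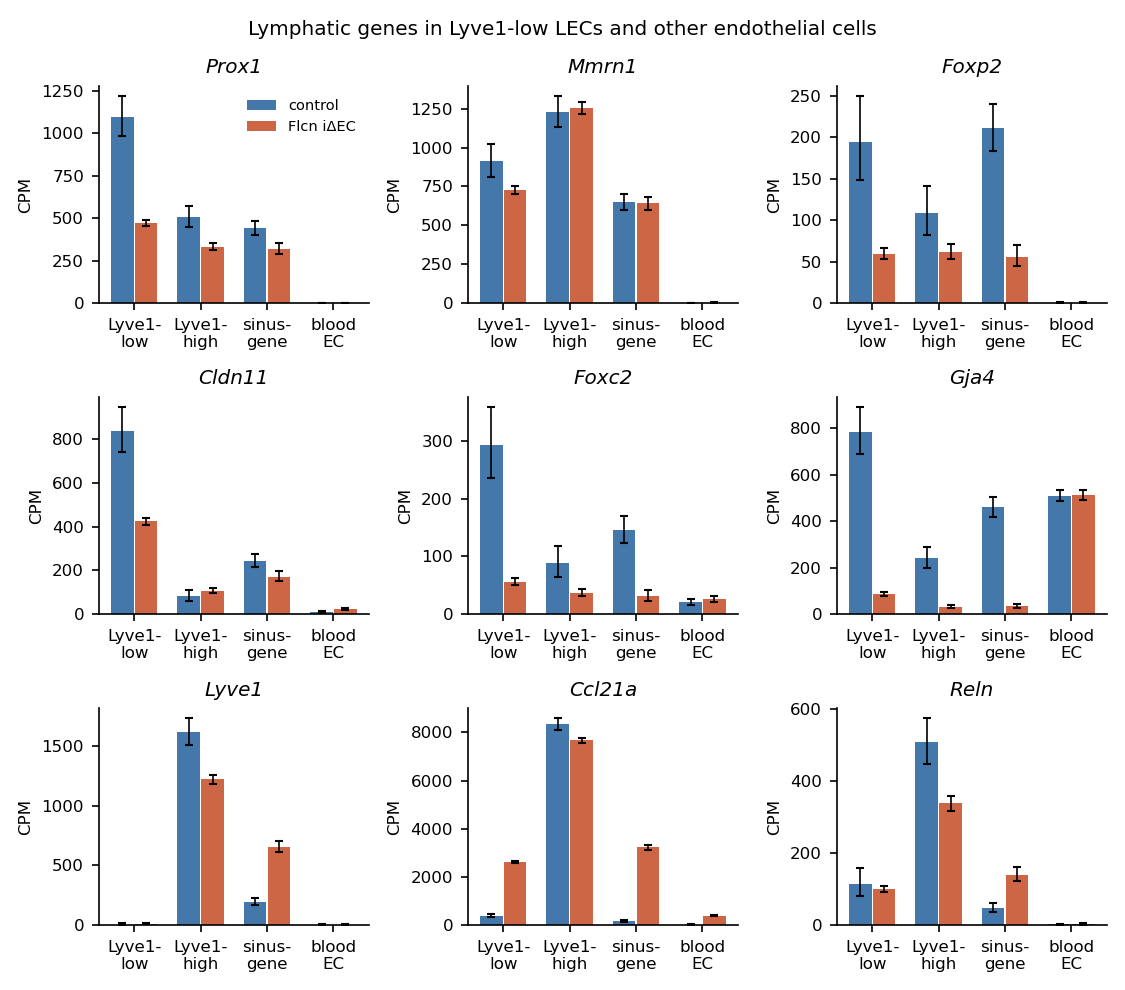
Levels of 9 lymphatic genes in 4 groups of cells, in CPM of the summed UMIs on the vertical axes, for the control (blue) and Flcn iΔEC (orange) library; bars start at 0 and whiskers are exact 95% Poisson intervals for counting error only. Cldn11, Foxc2 and Gja4 stood higher in Lyve1-low than in Lyve1-high LECs of the control (839, 293 and 785 against 80.9, 88.8 and 241 CPM), while Ccl21a and Reln stood lower.

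Ccl21a and Reln, genes of lymphatic capillaries, ran the other way. Ccl21a, the chemokine that guides dendritic cells into lymphatics, stood at 378 CPM in control members and 8331 CPM in control Lyve1-high LECs, and at 2601 and 7665 CPM in the Flcn iΔEC library. The files list this gene under 2 identifiers, and the values are those of ENSMUSG00000094686. Reln, a secreted glycoprotein, was 4.43-fold lower in members of the control and 3.41-fold lower in those of the Flcn iΔEC library. Both genes count toward the rule, which asks for any 3 of 6, so their levels are description. Piezo2, a mechanosensitive channel outside the rule, stood at 44.5 and 162 CPM in the control and at 65.7 and 141 CPM in the Flcn iΔEC library. Of the 7 capillary genes compared, 5 were at least 2-fold lower and 1 higher in members of the control, and 4 were lower and 0 higher in the Flcn iΔEC library, but Lyve1, Ccl21a, Reln and Nts among them belong to the rule. Of the 3 outside it, Piezo2 was past 2-fold in both libraries, Fgl2 only in the control and Stab1 in neither. Nts did not share the pattern of Ccl21a, being 2.75-fold higher in members of the control (2.35 to 3.22) and at 0.877 times the level of Lyve1-high LECs in the Flcn iΔEC library (0.830 to 0.926).

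Outside the rule, 2658 genes could be compared between Lyve1-low and Lyve1-high LECs in both libraries, with a mean of at least 50 CPM over the 2 groups and at least 50 summed counts. Of these, 20 genes (0.752%) were at least 2-fold higher in members in both libraries and 10 (0.376%) at least 2-fold lower. When at least 4 of the 6 lymphatic genes were required, 13 were higher. After every cell was thinned at random to 2000 UMIs only 244 genes could be compared, of which 0 were higher and 1 lower. Cldn11 led the higher genes, at 10.4-fold in the control (7.45 to 14.8) and 4.02-fold in the Flcn iΔEC library (3.58 to 4.53). It was followed by the glutamine synthetase gene Glul, whose levels were 153 and 43.4 CPM in the control and 255 and 78.3 CPM in the Flcn iΔEC library. Ccdc141 was 7.84-fold and 3.13-fold higher, the magnesium transporter gene Slc41a1 4.85-fold and 3.02-fold, and the integrin subunit gene Itgb4 7.84-fold and 2.92-fold. Procr, the endothelial protein C receptor, was 4.46-fold and 2.92-fold higher, and the microfibril gene Mfap2 4.97-fold and 2.66-fold.

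Annexin A1 (Anxa1) and Tmem158 closed the list of the leading genes with Gdf10. Anxa1 stood at 432 CPM in control members and 41.4 CPM in control Lyve1-high LECs, but 45.6% of its 136 UMIs in control members came from 1 cell. In the Flcn iΔEC members 151 of 195 cells had an Anxa1 UMI, and the level was 170 CPM against 63.0 CPM in Lyve1-high LECs. Tmem158 was 9.71-fold higher in members of the control and 2.80-fold higher in those of the Flcn iΔEC library, and Gdf10, of the BMP family, 5.34-fold and 2.31-fold. Tmem158 and Procr were also high in Prox1-positive cells with fewer than 3 lymphatic genes, at 1706 and 878 CPM in the control, so they did not mark lymphatic cells alone. Ccdc141 did so more closely, with 1.16 and 3.42 CPM in the blood endothelial cells of the 2 libraries against 232 and 128 CPM in the members.

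**Figure D2:**
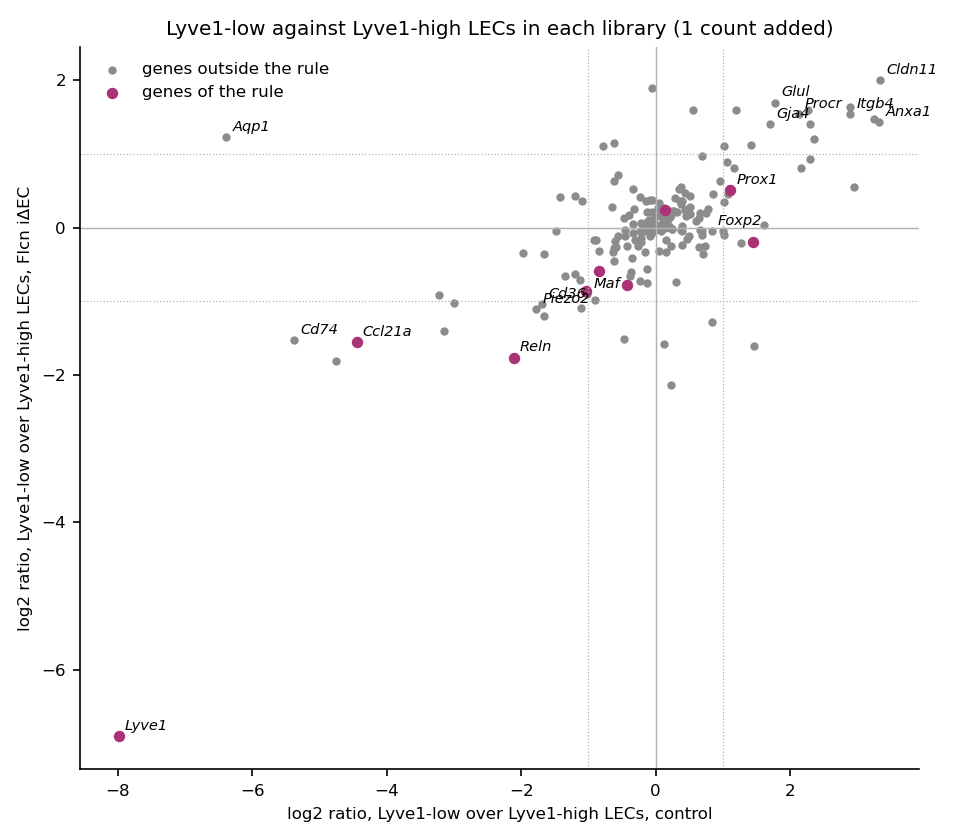
Log2 ratios of Lyve1-low over Lyve1-high LECs (1 count added) in the control library, horizontal axis, and in the Flcn iΔEC library, vertical axis, for the named and listed genes compared in both; purple points are genes of the rule and dotted lines mark 2-fold. Cldn11 lies at 3.35 and 2.01, and Lyve1, Ccl21a and Reln lie to the lower left.

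Among the genes lower in members, Mest, an imprinted gene, stood at 44.5 CPM in control members and 381 CPM in control Lyve1-high LECs, and at 80.2 and 163 CPM in the Flcn iΔEC library. The fatty acid transporter gene Cd36 was 3.33-fold and 2.05-fold lower, Igfbp4 2.18-fold and 2.13-fold lower, and Adgrg3, an adhesion receptor gene, 10.2-fold and 2.65-fold lower. The lysosomal protease gene Ctsd was also lower in members, 3.21-fold and 2.30-fold. Gmfg, Maf and Rnase4 completed the leading genes, and each fell short of 2-fold in at least 1 library. Cd74, of the MHC class II pathway, had 2 counts in the control members and 201 in control Lyve1-high LECs, a ratio of 0.0160 (0.00193 to 0.0587). Its direction changed with cells that carried Ptprc. Without cells above 1 Ptprc UMI, its log2 ratio was -1.54 in control cells and 0.55 in Flcn iΔEC cells.

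Against blood endothelial cells the members differed more widely, as 145 of 3041 genes (4.77%) were at least 2-fold higher in both libraries and 180 (5.92%) lower, and after thinning 59 and 140 of 1823 were. Cldn11 was 87.9-fold higher in the control (61.1 to 130) and 20.2-fold in the Flcn iΔEC library (16.4 to 25.2). Fabp4, a fatty acid binding protein of capillaries, was 2.58-fold and 5.86-fold lower, and Cd36 5.99-fold and 2.57-fold lower. Gja4 was shared with blood vessels, at 509 and 512 CPM in blood endothelial cells. Compared with sinus-gene LECs, 8 of 2963 genes (0.270%) were at least 2-fold higher in members of both libraries and 50 (1.69%) lower.

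Between the libraries, 3441 genes could be compared in the Lyve1-low LECs. Of these, 119 (3.46%) were at least 2-fold higher in the Flcn iΔEC members and 293 (8.51%) at least 2-fold lower. The counting interval left out a ratio of 1 for all of them. The limits on level, counts and fold left little room for another outcome, so this is no support for the calls. The median log2 ratio over all 3441 genes was -0.20. With median-of-ratios scaling, which sets this median to 0, the counts were 166 higher and 177 lower, so that the excess of lower genes changed with the scaling. After thinning, 1441 genes could be compared, with 120 higher and 107 lower. In Lyve1-high LECs 97 of 3248 genes (2.99%) were higher and 151 (4.65%) lower, and in blood endothelial cells 57 of 3386 (1.68%) and 72 (2.13%). These groups come from the same pair of libraries, and the 20 control members carried the fewest UMIs of the 3.

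Genes of valves and collecting vessels stood lower in the Flcn iΔEC members. Of the 20 genes on this list, 18 could be compared, of which 9 were at least 2-fold lower and 1 higher, with a median log2 ratio of -1.02. Thinned to 2000 UMIs per cell, 9 genes of the list could be compared, with a median of -0.44. Among the 9 lower genes were Foxp2, Foxc2, Gja4, Gja1, Efnb2, Vangl2, Dchs1 and Fn1, and the higher gene was Neo1. In Lyve1-high LECs 4 of 14 were lower and 0 higher (median -0.66), and in blood endothelial cells 0 of 10 either way (median -0.18). The difference between these groups was not tested.

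Foxc2 (chromosome 8, 121116171 to 121118895) stood at 293 CPM in the control (236 to 359, 92 counts) and at 56.1 CPM in Flcn iΔEC members (49.7 to 62.9, 286 counts), 5.22-fold lower. In single cells its median was 300 CPM in the control, with 15 of 20 cells above 0 and a maximum of 892 CPM, and 31.5 CPM in the Flcn iΔEC library, with 111 of 195 cells above 0 and a maximum of 404 CPM, so that the ranges overlapped while the middle of each lay apart. After every cell was thinned at random to 2000 UMIs, 45.0% of the control members had a Foxc2 UMI (23.1 to 68.5) and 11.3% of the Flcn iΔEC members (7.21 to 16.6). The same share was 2.86% and 4.78% in blood endothelial cells, whose median depths were 11266 and 15574 UMIs, and 0.0644% and 0.0855% in leukocytes, whose median depths were 7499 and 8258 UMIs.

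Gja4, a connexin gene (chromosome 4, 127311421 to 127314039), showed the widest difference of the list, at 785 CPM in the control (691 to 890) and 85.7 CPM in the Flcn iΔEC members (77.8 to 94.1), 9.17-fold lower. It was detected in 17 of 20 control cells and in 66 of 195 Flcn iΔEC cells, although the latter were deeper. Control cells were uneven, from 0 to 3756 CPM with the next highest at 2147 CPM, so the summed level rested partly on few cells. Flcn iΔEC cells ran from 0 to 1832 CPM. In Lyve1-high LECs Gja4 was 7.49-fold lower, at 241 and 32.1 CPM, whereas blood endothelial cells held 509 and 512 CPM. The arterial and valve ligand Efnb2 was 5.63-fold lower in members, at 289 and 51.4 CPM, and 4.31-fold lower in Lyve1-high LECs, beside 264 and 206 CPM in blood endothelial cells. Fibronectin (Fn1), which builds the matrix core of valve leaflets, was 2.96-fold lower in members, at 1415 and 478 CPM, with a lowest control cell of 415 CPM and a median of 428 CPM in the Flcn iΔEC cells.

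Prox1 was also lower in the Flcn iΔEC members, a description only, since at least 1 UMI of it was required. It stood at 1097 CPM in the control (984 to 1219) and 470 CPM in Flcn iΔEC cells (452 to 490), with cells ranging from 58.6 to 3782 CPM around a median of 807 CPM and from 17.1 to 1886 CPM around a median of 402 CPM. Deeper cells pass a limit of 1 UMI at a lower level, and the Flcn iΔEC members were deeper. Among 11 lymphatic regulators and surface genes outside the rule, 10 were compared, 0 were higher and 3 were lower, beside 3.46% higher and 8.51% lower over all genes. The 3 were the semaphorin and Vegfc co-receptor gene Nrp2 at 436 and 105 CPM, the homeobox gene Hhex at 188 and 46.5 CPM and the angiopoietin receptor gene Tek at 159 and 70.2 CPM. Nrp2 and Hhex were also at least 2-fold lower in Lyve1-high LECs, as 2 of 10 genes with 0 higher. In blood endothelial cells 0 of 6 were past 2-fold. The venous and lymphatic factor Nr2f2 stood at 378 and 352 CPM. Cldn11 was 1.98-fold lower, at 839 and 424 CPM, just short of the 2-fold limit.

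**Figure D3:**
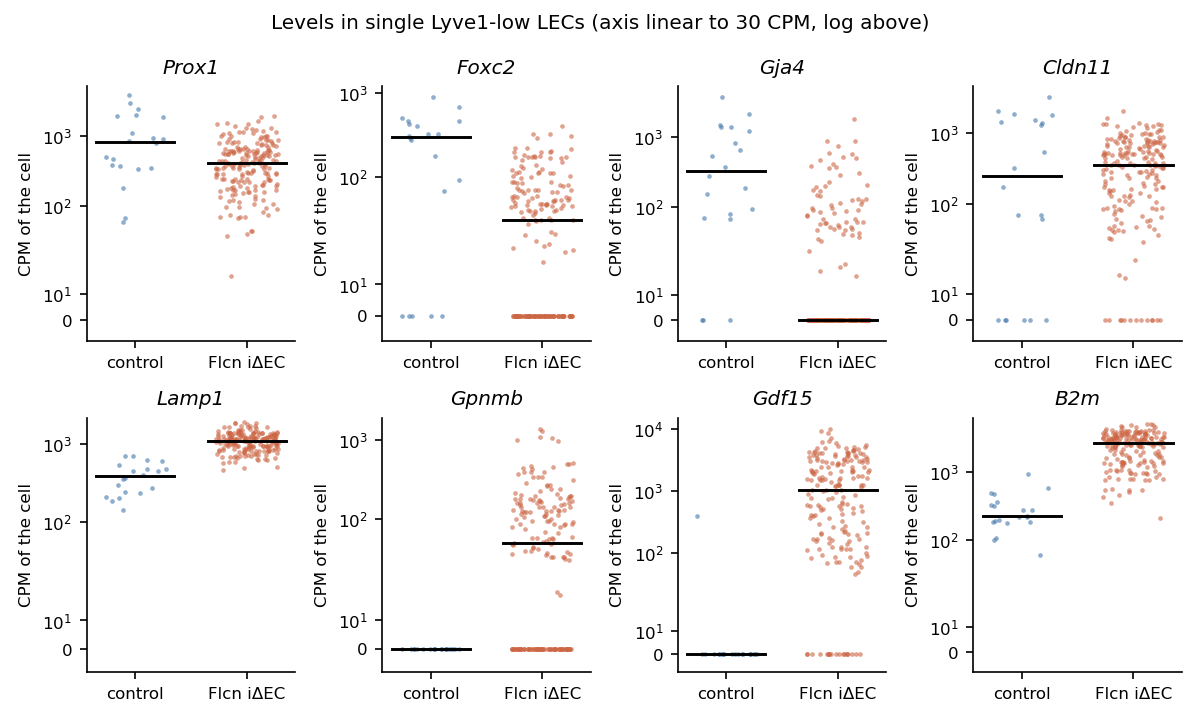
Levels of 8 genes in single Lyve1-low LECs, in CPM of each cell on the vertical axes (linear to 30 CPM, logarithmic above), with 20 control cells (blue) and 195 Flcn iΔEC cells (orange); black lines are medians over cells, and the horizontal scatter is random. Lamp1 and B2m lie higher in most Flcn iΔEC cells (medians of 1104 against 387 CPM and 2660 against 227 CPM), while the medians of Foxc2 are 300 CPM in the control and 31.5 CPM in the Flcn iΔEC library.

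Lysosomal genes stood higher in the Flcn iΔEC members. Of 36 genes of the lysosome and autophagy, 25 could be compared, of which 11 were at least 2-fold higher and 0 lower, with a median log2 ratio of 0.68 that did not move with Gpnmb set to its lower bound. In Lyve1-high LECs 10 of 24 were higher (median 0.86) and in blood endothelial cells 6 of 21 (median 0.88), with 0 lower in either, so this difference was shared by all 3 groups. Lamp1, a major protein of the lysosomal membrane (chromosome 8, 13159161 to 13175338), stood at 407 CPM in the control (128 counts) and 1110 CPM in the Flcn iΔEC members, 2.73-fold higher (2.29 to 3.28). Its cells ran from 141 to 695 CPM in the control and from 464 to 1920 CPM in the Flcn iΔEC library, so most of the latter lay above the whole control range. The tetraspanin gene Cd63 was 8.71-fold higher in members (518 and 4513 CPM), 5.85-fold in Lyve1-high LECs and 4.57-fold in blood endothelial cells.

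Among the enzymes of the lysosome, the hexosaminidase gene Hexa stood at 70.0 and 338 CPM, the carboxypeptidase gene Ctsa at 73.1 and 250 CPM, and Ctsd at 242 and 677 CPM. The cholesterol transfer protein gene Npc2 was 3.47-fold higher (2.72 to 4.49). Gpnmb, a glycoprotein of lysosomes (chromosome 6, 49036546 to 49070929), had 0 counts in the 20 control members, which allows up to 9.54 CPM, and 669 counts in 119 of 195 Flcn iΔEC members, at 131 CPM and thus at least 13.7-fold higher. In the Flcn iΔEC library, Lyve1-high LECs held 99.9 CPM and blood endothelial cells 1.59 CPM. Of 17 genes of the folliculin complex and its transcription factors only 4 were abundant enough to compare, with the Ragulator subunit gene Lamtor1 2.25-fold higher and 0 lower. Tfe3 stood at 19.1 CPM (6 counts) and 17.4 CPM (89 counts).

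The promoters of these genes are shown because Tfe3 and Tfeb are known to bind the letters CACGTG, which form the core of the longer CLEAR element of many lysosomal genes, searched here as CACGTG with GT before it and AC after it. RefSeq windows of 300 bases on GRCm38.p6, around the start of transcription and ending 50 bases after it, were available for 27 of the 36 listed genes and for 7 of the 10 genes with the widest differences in each direction. Each motif equals its own reverse complement, so a match counts for both strands. CACGTG lay in 9 of the 31 windows of the list (29.0%), in Atp6v0d1, Atp6v1a, Ctsa, Ctsd, Ctsl, Gaa, Glb1, Lamp1 and Mcoln1, and in 7.15% of all 32851 windows. The longer motif, which contains CACGTG, lay in 0 of the 31 windows and in 0.326% of all windows. Of the 10 windows of the genes with the widest upward differences, 1 held CACGTG (10%), that of Gdf15, beside 7.15% of all windows. For the widest downward differences it was 0 of 7. Other genes past 2-fold higher were not counted as a set. The windows below belong to the 5 genes past 2-fold higher in these searched sets with CACGTG, which stands in capitals. Of the 5, 4 are from the lysosomal list, and the other is the stress-induced Gdf15. The windows of Ctsa and Gdf15 lay inside the spans of these genes, downstream of their outermost starts. Lamp1 held 4 copies, Ctsa and Ctsd 2 each, and Gaa and Gdf15 1 each.
Lamp1, chr8:13158911-13159210, plus strand: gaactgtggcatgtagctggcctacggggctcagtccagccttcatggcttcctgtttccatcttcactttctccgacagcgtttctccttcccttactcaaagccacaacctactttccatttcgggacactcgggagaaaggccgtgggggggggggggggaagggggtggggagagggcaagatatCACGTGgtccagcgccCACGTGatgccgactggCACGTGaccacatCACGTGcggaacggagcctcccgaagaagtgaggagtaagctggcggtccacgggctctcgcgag
Ctsa, chr2:164833523-164833822, plus strand: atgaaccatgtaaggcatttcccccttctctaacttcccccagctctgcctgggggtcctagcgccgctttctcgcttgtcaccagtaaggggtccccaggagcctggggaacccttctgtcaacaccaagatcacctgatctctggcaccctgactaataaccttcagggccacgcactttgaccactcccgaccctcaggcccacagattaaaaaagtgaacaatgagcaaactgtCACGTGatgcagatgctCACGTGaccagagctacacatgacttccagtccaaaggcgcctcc
Ctsd, chr7:142387778-142388077, minus strand: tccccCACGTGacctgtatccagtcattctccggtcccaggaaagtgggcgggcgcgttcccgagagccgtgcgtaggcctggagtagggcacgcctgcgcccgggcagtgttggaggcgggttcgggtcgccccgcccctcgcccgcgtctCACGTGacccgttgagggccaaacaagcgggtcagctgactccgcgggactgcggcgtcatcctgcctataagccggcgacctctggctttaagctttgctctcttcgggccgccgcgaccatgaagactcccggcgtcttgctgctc
Gaa, chr11:119267713-119268012, plus strand: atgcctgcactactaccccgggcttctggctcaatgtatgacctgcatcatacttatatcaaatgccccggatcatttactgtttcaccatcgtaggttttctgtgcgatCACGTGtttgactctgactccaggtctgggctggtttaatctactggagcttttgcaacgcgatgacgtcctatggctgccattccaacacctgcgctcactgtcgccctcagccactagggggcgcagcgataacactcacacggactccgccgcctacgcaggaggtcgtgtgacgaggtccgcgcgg
Gdf15, chr8:70632046-70632345, minus strand: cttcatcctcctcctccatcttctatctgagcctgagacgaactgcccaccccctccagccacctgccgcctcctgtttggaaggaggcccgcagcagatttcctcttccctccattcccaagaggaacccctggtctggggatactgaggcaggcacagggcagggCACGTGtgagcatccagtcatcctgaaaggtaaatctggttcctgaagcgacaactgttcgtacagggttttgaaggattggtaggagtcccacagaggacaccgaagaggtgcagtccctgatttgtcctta

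CACGTG was absent from the windows of Cd63, Hexa, Npc2 and Gpnmb that could be searched, and of the 9 lower valve genes 4 had a window, with CACGTG in 0 of them. Both Prox1 windows lacked CACGTG. The more general letters CANNTG lay in 72.3% of all windows, and the window at the upstream start of Prox1 held 2 copies, which stand in capitals here because Prox1 defines these cells.
Prox1, chr1:190170778-190171077, minus strand: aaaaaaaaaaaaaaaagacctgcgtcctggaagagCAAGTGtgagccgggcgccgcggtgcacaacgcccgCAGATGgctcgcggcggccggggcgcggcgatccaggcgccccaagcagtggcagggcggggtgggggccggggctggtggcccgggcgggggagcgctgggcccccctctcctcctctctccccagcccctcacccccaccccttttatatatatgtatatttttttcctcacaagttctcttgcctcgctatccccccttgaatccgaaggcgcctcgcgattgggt

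Genes of MHC class I were the third group to differ. Of 13 interferon-stimulated and MHC genes 6 could be compared, 4 were at least 2-fold higher in the Flcn iΔEC members and 0 lower, and their median log2 ratio was 1.60. In Lyve1-high LECs 1 of 10 was higher and 1 lower (median 0.13), and in blood endothelial cells 1 of 10 was higher (median 0.14). B2m, the invariant chain of class I molecules, stood at 293 CPM in the control members (236 to 359) and 2343 CPM in the Flcn iΔEC members (2302 to 2386). Its cells ran from 61.0 to 926 CPM in the control and from 213 to 5040 CPM in the Flcn iΔEC library, with medians of 227 and 2660 CPM.

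The heavy chain gene H2-K1 was 5.62-fold higher (4.47 to 7.16) and H2-D1 4.33-fold (3.65 to 5.17), against 1.55-fold and 1.58-fold in Lyve1-high LECs and 1.05-fold and 1.02-fold in blood endothelial cells. H2-Q7 had 0 counts in control members, up to 9.54 CPM, and 158 CPM in the Flcn iΔEC members, at least 16.5-fold higher, although control Lyve1-high LECs held 73.0 CPM of it. B2m of the control members was 2.31-fold below that of control Lyve1-high LECs and 3.18-fold below that of control blood endothelial cells, while the Flcn iΔEC members stood 1.34-fold and 1.71-fold above theirs. Class I heavy chains are near-identical in sequence, so reads may have been divided among them, and B2m stood at 1169 and 1197 CPM in leukocytes.

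**Figure D4:**
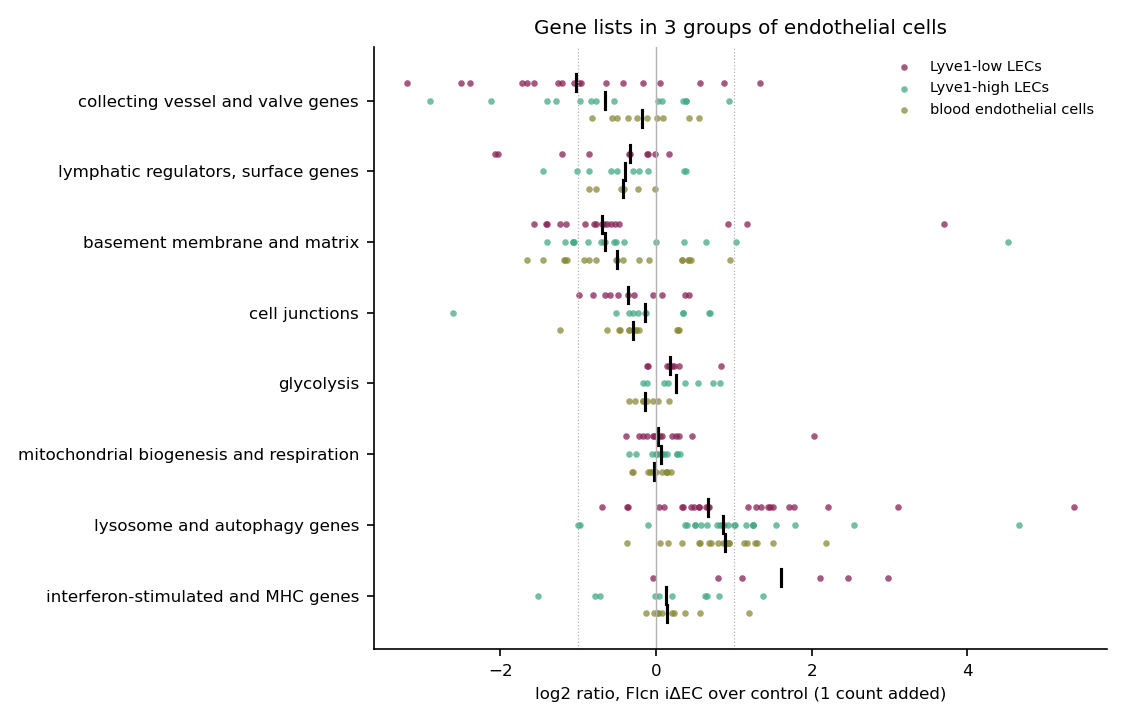
Log2 ratios of Flcn iΔEC over control (1 count added), horizontal axis, for the compared genes of 8 lists; each point is a gene in Lyve1-low LECs (purple), Lyve1-high LECs (green) or blood endothelial cells (olive), black ticks are medians and dotted lines mark 2-fold. Medians of the collecting vessel and valve list are -1.02, -0.66 and -0.18, those of the lysosomal list 0.68, 0.86 and 0.88, and those of the MHC list 1.60, 0.13 and 0.14.

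The ranking of single genes took those with at least 100 CPM in 1 library, without Xist, Y-linked and the other genes left out. Within it the gene with the largest log2 ratio upward was Gdf15, a secreted stress-induced factor (chromosome 8, 70629393 to 70632456). It had 5 UMIs in the control members, all in 1 of 20 cells, and 8032 UMIs in the Flcn iΔEC members, in 176 of 195 cells, at 15.9 and 1574 CPM. The ratio was 99.0 (42.4 to 305) in members, 81.4 in Lyve1-high LECs and 34.4 in blood endothelial cells. Lrrn4cl (chromosome 19, 8850768 to 8853909) stood at 28.6 CPM in the control members and 692 CPM in the Flcn iΔEC members, in 178 of 195 cells, and at 5.92 and 608 CPM in Lyve1-high LECs. In Flcn iΔEC blood endothelial cells it stood at 2.73 CPM, a low level like that of Gpnmb.

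Apolipoprotein E (Apoe) stood at 149 and 1642 CPM (ratio interval, 8.26 to 15.0), but 70.2% of its 47 control UMIs lay in 1 cell, and without the cell of each library with most of its UMIs the log2 ratio moved from 3.43 to 4.84. Plat, or tissue plasminogen activator, stood at 248 and 1987 CPM, 8.01-fold higher in members and 21.1-fold in Lyve1-high LECs. Nmb, which encodes neuromedin B, had 2 counts in the control members and 768 in the Flcn iΔEC members, a ratio of 23.7 (6.53 to 196). Uap1l1, at 12.7 and 191 CPM, was 15.0-fold higher. Hspa1a, a heat shock gene, had 0 counts in the control members and 102 CPM in the Flcn iΔEC members, but leukocytes also stood at 33.0 and 1249 CPM, so the difference was not particular to lymphatic cells.

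Mgp and Aqp1 stood apart, because few Flcn iΔEC members carried them. Aqp1, a water channel of blood capillaries, had 0 counts in the control members and 1024 in the Flcn iΔEC members, at 201 CPM and thus at least 21.04-fold higher, but in 45 of 195 cells only. Mgp, an inhibitor of calcification, stood at 28.6 and 412 CPM with UMIs in 50 of 195 Flcn iΔEC cells. A group of 16 Flcn iΔEC members with more than 3 Vwf UMIs, described below, held 2028 of the 2101 Mgp UMIs and 821 of the 1024 Aqp1 UMIs. Without these cells, a choice made after seeing the data, the log2 ratio of Mgp turned from 3.70 to -0.88, and Aqp1 stood at 47.4 CPM in the Flcn iΔEC members.

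Igfbp5, an IGF-binding protein, had the lowest ratio of the leading genes, with 76 UMIs in 7 of 20 control cells and 1 UMI in 195 Flcn iΔEC cells, at 242 and 0.196 CPM and with a ratio of 0.000811 (2.03e-05 to 0.00466). Igf1 was more even, with 117 UMIs in 16 of 20 control cells (372 CPM) and 34 in 15 of 195 Flcn iΔEC cells (6.66 CPM), 55.8-fold lower. In Lyve1-high LECs Igf1 was 5.47-fold lower and Igfbp5 1.37-fold lower. Adrenomedullin (Adm), a peptide with a role in lymphatic growth, had 125 UMIs in 8 control cells and 13 UMIs in 11 Flcn iΔEC cells, at 397 and 2.55 CPM.

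Some of these ratios leaned on few cells. Of the control UMIs of Adm 59.2% lay in 1 cell, of those of Nrgn 78.6% and of those of the EGF-family ligand Hbegf 81.4%. Without the cell of each library with most UMIs, log2 ratios moved from -7.19 to -6.37 for Adm, from -4.24 to -2.39 for Nrgn and from -4.80 to -3.44 for Hbegf. Comp, a cartilage matrix gene, was spread over 14 of 20 control and 40 of 195 Flcn iΔEC cells, at 162 and 14.1 CPM. Fibin stood at 318 and 24.7 CPM in members and at 178 and 17.8 CPM in Lyve1-high LECs. Trp53i11, at 188 CPM in the control and 15.7-fold lower, and Sncaip, at 114 and 10.2 CPM, made up the rest of the 10 lowest genes with Gja4.

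Other programs differed less or in both directions. Over all 3441 compared genes, 3.46% were at least 2-fold higher and 8.51% lower, with a median log2 ratio of -0.20. These values stand beside every list here and in the next paragraph. Of 11 compared genes of cell junctions and 8 of glycolysis, 0 were past 2-fold either way. Of 17 compared matrix genes 2 were higher (Eln and Mgp) and 5 lower (Lama4, Lamb1, Fn1, Emilin1 and Loxl2), and their median log2 ratio was -0.69. Among 9 genes of lipid handling 3 were higher (Lpl, Apoe and Plin2) and 3 lower, the lipase anchor Gpihbp1 and the binding proteins Fabp4, at 2092 and 556 CPM, and Fabp5, at 439 and 98.6 CPM. Of 11 genes of VEGFR3, angiopoietin and adrenomedullin signalling 4 were lower (Nrp2, Tek, Adm and Epas1) and 0 higher, and of 9 vasoactive and flow genes 3 were lower (Nos3, Thbd and Adm) and Plat alone higher.

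Beside 3.46% higher and 8.51% lower over all genes, a single call in the short lists that follow says little about the list. Of 14 genes of mitochondria the coactivator gene Ppargc1a alone was past 2-fold, at 35.0 CPM (11 counts) and 155 CPM. Among 9 imprinted and polyamine-related genes Odc1, the rate-limiting enzyme of polyamine synthesis, Sat1 and Mdk were higher and the cell cycle inhibitor Cdkn1c was lower. Odc1 stood at 541 and 1564 CPM in members, 2.89-fold higher, and at 367 and 517 CPM in Lyve1-high LECs. Cdkn1c stood at 312 and 56.1 CPM. Among 6 capillary genes Fgl2 was higher and the scavenger receptor gene Stab1 lower, at 499 and 176 CPM, while the higher level of Ccl21a and the lower one of Nts are description, since the rule used both. In the remaining lists, 1 of 6 chemokine genes was higher (Ccl21a, of the rule) and 1 lower (Clec2d), 1 of 5 stress response genes was higher (Gdf15), 1 of 11 Notch and BMP genes was higher (Id1) and 2 lower (Bmpr2 and Bmp4), 1 of 11 immediate early and heat shock genes was higher (Hspa1a) and 2 lower (Fosb and Egr1), 1 of 3 cell cycle genes was higher (Cdkn1a) and 1 lower (Ccnd2), and the single sinus gene compared was past 2-fold in neither direction.

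How far the differences between libraries were shared can be read from the genes past 2-fold. Of the 119 higher genes 107 could be compared in Lyve1-high LECs, where 58 (54.2%) were at least 2-fold higher as well, and 83 in blood endothelial cells, where 27 (32.5%) were. Of the 293 lower genes 186 could be compared in Lyve1-high LECs, where 60 (32.3%) were lower too, and 168 in blood endothelial cells, where 8 (4.76%) were. Over all genes compared, 2.99% were higher and 4.65% lower in Lyve1-high LECs, and 1.68% and 2.13% in blood endothelial cells. The 3 groups were sequenced in the same libraries, so the overlaps are no independent support.

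Within the members, expression was uneven. After thinning to 2000 UMIs, 2751 genes had a mean of at least 0.1 UMI per cell in both libraries, and in 25 of them the variance over cells was at least 2 times the mean in both, against medians of 0.947 and 1.04 over all. The 10 with the highest values were Malat1, Ccl21a, Fabp4, Nts, Gm42418, Sparc, Vim, H19, Odc1 and Fabp5. The variance of Ccl21a was 20.2 times its mean in the Flcn iΔEC members and 6.42 times in the control. It was detected in 135 of 195 Flcn iΔEC cells, from 0 to 29846 CPM with a median of 289 CPM, and in 7 of 20 control cells, up to 4641 CPM. In cells thinned to 2000 UMIs, 97 of 195 Flcn iΔEC members (49.7%) and 4 of 20 control members had a Ccl21a UMI, against 3.91% and 1.22% of blood endothelial cells and 1.92% and 0.838% of leukocytes. Summed over blood endothelial cells, Ccl21a was also higher in the Flcn iΔEC library, at 385 against 20.8 CPM.

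Split at 10 Ccl21a UMIs, a limit set after seeing the data, 17 control and 102 Flcn iΔEC members lay at or below it and 3 and 93 above it. The 9 Flcn iΔEC cells with 8 to 12 Ccl21a UMIs lay close to the limit. Among the cells low in Ccl21a, valve genes also stood lower in the Flcn iΔEC library. The control and Flcn iΔEC members there held 314 and 61.5 CPM of Foxc2, 820 and 132 CPM of Gja4 and 288 and 53.7 CPM of Efnb2. The control side kept 17 of its 20 members, so this is largely the same comparison and no separate support. The limit is also in raw UMIs, and the Flcn iΔEC members were deeper. In Flcn iΔEC cells at or below the limit and above it, Gdf15 stood at 1516 and 1647 CPM and Cd63 at 4041 and 5100 CPM. Gja4 differed between them, at 132 and 28.2 CPM.

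**Figure D5:**
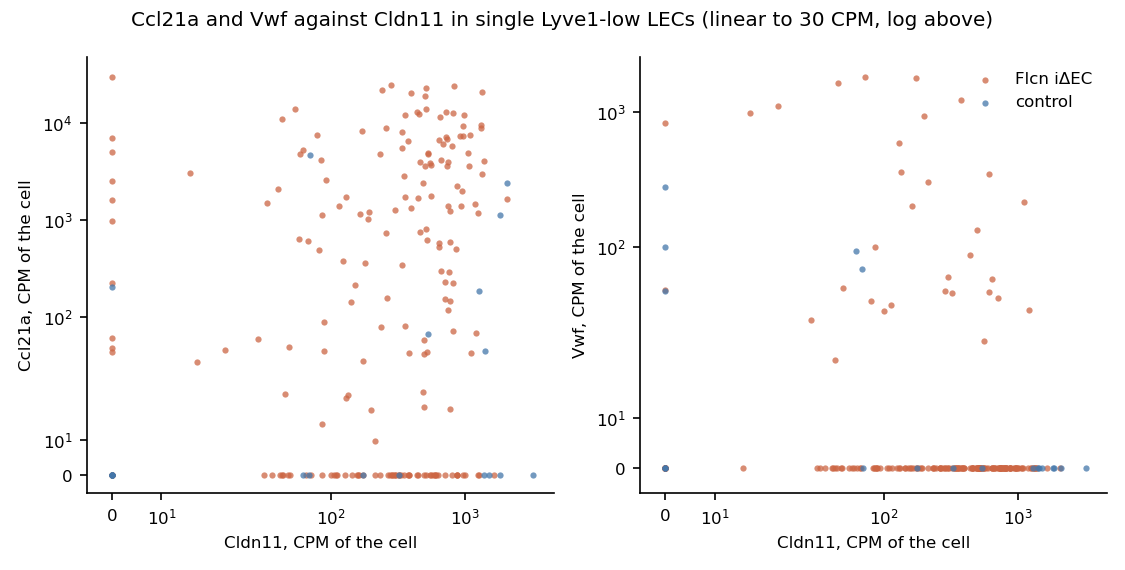
Ccl21a (left) and Vwf (right) against Cldn11 in single Lyve1-low LECs, all in CPM of the cell on axes that are linear to 30 CPM and logarithmic above, for control (blue) and Flcn iΔEC (orange) cells. Ccl21a divides the Flcn iΔEC cells into 93 with over 10 UMIs and 102 with fewer or equal, and Vwf is at 0 in most cells of both libraries.

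The 16 Flcn iΔEC members with more than 3 UMIs of Vwf, a gene of blood vessels, differed from the rest, and 0 control members passed this limit in raw UMIs. They held 725 CPM of Vwf, 2471 CPM of Mgp, 1000 CPM of Aqp1 and 132 CPM of the venous receptor gene Aplnr, and the other 179 Flcn iΔEC members 3.97, 17.1, 47.4 and 0.467 CPM. Their lymphatic genes were low, with 9 counts of Mmrn1 (5.01 to 20.8 CPM) against 865 CPM, 1.22 against 70.8 CPM of Foxp2, 56.1 against 299 CPM of Flt4 and 0 counts of Pdpn, while Prox1 stood at 344 against 495 CPM and Cldn11 at 216 against 464 CPM. Gpnmb and Lrrn4cl were low in them too, at 25.6 and 13.4 CPM against 151 and 822 CPM. Scrublet called 0 of the 16 a doublet. They were deep cells, with 22998 to 103384 UMIs each. The median was 22989 over the Flcn iΔEC members, and the deepest control member had 32318. Deeper cells pass limits set in raw UMIs, of Vwf and of the lymphatic genes, at a lower level. A shallow control member of 10767 UMIs held 279 CPM of Vwf and 464 CPM of Mgp, but also 1579 CPM of Mmrn1.

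Cldn11 divided the members again. At least 5 Cldn11 UMIs, a limit also set after seeing the data, were found in 9 control and 132 Flcn iΔEC members. Because this limit is in raw UMIs, the deeper Flcn iΔEC members could pass it at a lower level of Cldn11. Among the cells that passed, the log2 ratio of Cldn11 between libraries was -1.60, so these cells were not matched in it. The 9 control cells held 1687 CPM of Prox1, 1161 CPM of Gja4, 697 CPM of Adm and 2424 CPM of Nts, and the 11 others 583, 458, 137 and 506 CPM. Nrp2 ran the other way, at 81.9 CPM against 744 CPM. Within the cells that passed, Foxc2, Gja4 and Efnb2 were lower in the Flcn iΔEC library, at 369 and 61.4 CPM, at 1161 and 108 CPM, and at 184 CPM (122 to 268) against an interval of 42.9 to 57.9 CPM, whereas Nrp2 was not (101 CPM in the Flcn iΔEC cells). These cells are part of the members compared above, and the limit kept the control cells richer in Gja4, so this is no separate support.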

How the data were processed

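CD31+ mesenteric cells of 1 control and 1 Flcn iΔEC library were profiled with 10x Chromium 3′ chemistry. The authors made the deposited counts, which are UMIs per gene and barcode, with Cell Ranger 3.0 on mm10. From these raw counts, cells were chosen with the rule given above, and the UMIs of each group of cells were added up per gene and divided by the group's total (CPM). A gene was compared with a mean of at least 50 CPM and at least 50 summed counts, and was past 2-fold on log2 ratios with 1 count added. Intervals are 95% and exact (Poisson for levels, conditional binomial for ratios, Clopper-Pearson for shares). Shares and variances were computed after thinning to 2000 UMIs. Genes named were the rule and marker genes, list members past 2-fold whose interval left out 1 with up to 4 further members by mean level, the 10 largest ratios each way between libraries (at least 100 CPM in 1 library, without Xist, Tsix, Y-linked, hemoglobin, immunoglobulin and mitochondrial genes) and between Lyve1-low and Lyve1-high LECs (at least 100 CPM in 1 group of both libraries, without rule genes, ranked by the smaller ratio), the 10 most variable genes, and genes the study names. Some listed genes are not reported here by name. The members and lists were chosen with earlier results of these data known. The calculations, tested on simulated data, used Python 3.11.15, numpy 2.4.6, scipy 1.17.1, pandas 2.3.3 and scanpy 1.11.5 (Scrublet), with gene positions from GRCm38 (98.8% of identifiers matched). The depth was 64639756 UMIs in the control library and 60805779 in the Flcn iΔEC library. Alternatives changed the limits of the rule, the scaling, the filter on low values and the cells kept.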

Additional observations from a re-analysis of the deposited data

Results flagged for a closer look

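Aqp1 differed in direction between lymphatic groups. Its log2 ratio of Flcn iΔEC over control was 5.98 in Lyve1-low LECs, where it had 1024 UMIs in the Flcn iΔEC cells and 0 in the control cells, and -1.63 in Lyve1-high LECs, where it had 269 and 134 UMIs, or 85.6 and 264 CPM. With 0 control counts the first value is set by the 1 count added, and the limit of 3 counts allows only a fold of at least 21.04. Of the 1024 UMIs, 821 lay in 16 cells with more than 3 Vwf UMIs. The difference was not tested, since each genotype had 1 library.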

How the results depend on the processing

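No paired analysis was possible because each genotype had 1 library. The 4 settings that left out members with over 3 Vwf UMIs, kept members with at most 10 Ccl21a UMIs, kept members with at least 5 Cldn11 UMIs, or left out each gene's top cell were chosen after seeing the data. Genes at least 2-fold higher in Lyve1-low than in Lyve1-high LECs of both libraries numbered 13 with at least 4 lymphatic genes required, 0 after thinning, 9 with a mean of at least 100 CPM and 283 without a filter, and genes lower numbered 6 without cells above 1 Ptprc UMI, 1 after thinning, 16 at 20 CPM, 6 at 100 CPM and 185 without a filter. Against blood endothelial cells, 59 were higher after thinning, and 236, 77 and 1303 were higher and 357, 82 and 833 lower at 20 CPM, at 100 CPM and without a filter. Between libraries, genes lower in the Flcn iΔEC members numbered 177 with median-of-ratios scaling, 107 after thinning, 749 at 20 CPM, 124 at 100 CPM, 6399 without a filter and 465 among members with at least 5 Cldn11 UMIs, and genes higher numbered 238, 74 and 579 at 20 CPM, at 100 CPM and without a filter. The median log2 ratio of the valve list was -0.44 after thinning. That of the MHC list was 1.10 at 20 CPM and 1.10 without a filter, 1.06 without the Vwf cells, 1.96 in cells low in Ccl21a and 2.34 in cells with at least 5 Cldn11 UMIs. Genes with a variance of at least 2 times the mean numbered 108 after thinning to 5000 UMIs. Of the log2 ratios of single genes between libraries, recomputed under each alternative, 539 stayed within the counting interval of the value reported, 74 left it and 2 reversed. The changes were not spread evenly over the settings. After thinning to 2000 UMIs, 22 ratios left the interval and 19 stayed. Among members with at least 5 Cldn11 UMIs, 21 left it, 1 reversed and 19 stayed. Directions reversed for Cd74 in the Flcn iΔEC library without cells above 1 Ptprc UMI (0.55), Maf in the control after thinning (0.057), the cell cycle median without a filter (-0.038), Mgp without the Vwf cells (-0.88), and the Notch and BMP median (0.019) and Nrp2 (0.19) with at least 5 Cldn11 UMIs. The causes were not tested. The 20 control cells and their 314479 UMIs limit every comparison between libraries.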
